A study of Mus musculus with 62 samples.

Results

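H3.3 was compared between Daxx-KO and WT haematopoietic stem and progenitor cells (HSPCs) at 24 weeks post induction (w.p.i.), at every site that the authors listed for this comparison. The table held 255404 sites on the autosomes, of the 1128881 autosomal sites in the 6 tables used here, and all of its sites were taken. A site was called gained when each Daxx-KO value exceeded each WT value, and lost in the opposite case. Because the authors had listed these sites for a difference between the same libraries, their counts and sizes are a description and carry no test. With 2 libraries in each group, an exact two-sided permutation test of a single site cannot go below a p of 1 in 3.

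The Daxx-KO group was Daxx F/F with the Cre transgene (+/-), and the WT group was Daxx +/+ with the same Cre allele, both on C57BL/6. Both groups carried Cre and had received pI:pC to induce it, so that neither differs between them by design. In the study the Cre was Mx1Cre, which responds to interferon and is therefore active in other cells of the animal as well. The cells were bone-marrow cells, lineage-negative and c-Kit-positive, enriched with magnetic beads, and each library came from 1 mouse. In such a mixed population, a change in the share of a cell type and a change of H3.3 within cells cannot be told apart. CUT&Tag, in which an antibody tethers a transposase to chromatin that carries its target, was used for all libraries, and at 24 w.p.i. the reads of chromosomes X and Y had been removed by the authors.

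H3.3 is the variant of histone H3 that is placed into chromatin outside of DNA replication. The Hira complex, with its partners Ubn1, Ubn2 and Cabin1, is known to place H3.3 at active genes and regulatory elements. Daxx works with the remodeller Atrx and is known for placing H3.3 at telomeres, pericentromeric DNA and other repeats, where H3K9me3 is also found. In blood, the pioneer factor Pu.1, encoded by Spi1, drives the myeloid programme.

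Sequences of the sites on which the description turns are given first, as 300 bases of the plus strand from the RefSeq sequence of GRCm38.p6, the assembly behind mm10. The first pair shown are the promoter sites of protein-coding genes with the strongest gain and the strongest loss, at Csad and Zfp740 (chr15:102203301-102203600) and at Bcr (chr10:75173251-75173550). A promoter here is the surroundings of any annotated transcription start, those of alternative transcripts included. The Bcr site was centred at -0.6 kb from the nearest such start and need not be the main promoter of the gene. Capitals mark each CpG, of which the gained window held 27 and the lost window 7.

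Csad and Zfp740 promoter, gained: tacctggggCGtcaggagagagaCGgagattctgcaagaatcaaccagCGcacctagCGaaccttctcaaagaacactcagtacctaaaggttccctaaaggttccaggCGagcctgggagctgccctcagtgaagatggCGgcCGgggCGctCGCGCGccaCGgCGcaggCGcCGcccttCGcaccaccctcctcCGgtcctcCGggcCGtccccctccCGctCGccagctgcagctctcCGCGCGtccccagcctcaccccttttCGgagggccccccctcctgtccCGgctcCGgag

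Bcr promoter, lost: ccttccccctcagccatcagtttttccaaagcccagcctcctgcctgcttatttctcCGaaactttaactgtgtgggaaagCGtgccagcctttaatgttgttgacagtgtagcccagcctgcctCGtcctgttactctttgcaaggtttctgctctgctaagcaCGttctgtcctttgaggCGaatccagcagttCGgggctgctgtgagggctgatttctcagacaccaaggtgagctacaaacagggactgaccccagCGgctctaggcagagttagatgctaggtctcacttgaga

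Repeats of TTAGGG, the unit of vertebrate telomeres, also occur away from chromosome ends, and a pair of such sites is shown for the link of Daxx with telomeric repeats. The gained site lay in an intron of Sh3gl3 (chr7:82287188-82287487) and the lost site lay between genes (chr5:109663666-109663965). Capitals mark each TTAGGG or its complement CCCTAA, of which the gained window held 3 and the lost window 16.

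Sh3gl3 intron, gained: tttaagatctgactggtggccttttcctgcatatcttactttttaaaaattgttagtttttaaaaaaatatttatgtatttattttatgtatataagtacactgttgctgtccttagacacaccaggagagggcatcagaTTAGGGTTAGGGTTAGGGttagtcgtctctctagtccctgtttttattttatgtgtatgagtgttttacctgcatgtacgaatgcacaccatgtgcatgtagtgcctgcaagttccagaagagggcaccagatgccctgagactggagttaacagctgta

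chromosome 5 repeat, lost: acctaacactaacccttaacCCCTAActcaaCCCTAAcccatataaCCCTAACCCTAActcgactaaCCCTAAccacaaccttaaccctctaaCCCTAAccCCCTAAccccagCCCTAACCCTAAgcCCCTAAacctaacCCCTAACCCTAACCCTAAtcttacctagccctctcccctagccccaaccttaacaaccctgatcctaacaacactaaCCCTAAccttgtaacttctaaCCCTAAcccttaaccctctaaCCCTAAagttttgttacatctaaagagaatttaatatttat

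The deposited value of a site in a library is its read count divided by a constant for that library, called the normalised count here. One read was worth 0.922 to 1.13 normalised counts. The mean number of reads in a 600-bp window was 5.79 and 6.11 for Daxx-KO and 8.64 and 7.51 for WT, so the Daxx-KO libraries were the shallower ones. Library totals were not used here. Values are given in the order in which the table's header lists the mice of a group. Only sites with a difference are listed, so a gene without a site has no value, and the purity of the HSPCs cannot be read from it.

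Gains and losses of H3.3 were almost equally frequent in Daxx-KO HSPCs. Of the 255404 listed sites, 130955 were gained (51.3%) and 120103 were lost (47.0%), and at the other 4346 (1.7%) the libraries of the groups overlapped. Of the 251058 separated sites, 52.2% were gained. The sites covered 218.9 Mb, or 8.89% of the autosomes, and had a median length of 800 bp (range 600 to 5650 bp).

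The difference at a typical site was large against the level of the other group. At gained sites the Daxx-KO medians were 57.4 and 61.1 and the WT medians 9.2 and 7.5. At lost sites the Daxx-KO medians were 4.4 and 4.5 and the WT medians 55.4 and 54.5. The median absolute log2 ratio of group means was 2.72 for gains and 2.99 for losses, among sites with reads in both groups. Both libraries of the other group held no read at 7355 gained sites (5.6%) and at 16286 lost sites (13.6%). Within the higher group, the 2 libraries of a site differed by a median of 0.64 on the log2 scale at gains and of 0.51 at losses.

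The balance moved with the level of a site and with its base composition. Below a mean of 40 normalised counts in the higher group, 50.7% of sites were gained (95% Wilson interval 50.2 to 51.3). Of the sites whose higher group had a mean of 40 to 60 normalised counts, 47.5% were gained (47.2 to 47.9). The share was 61.1% (60.6 to 61.7) at means of 100 to 150 and 69.7% (67.2 to 72.0) at 200 to 300. It was 54.3% (46.9 to 61.6) at the 173 separated sites with a mean of at least 300. One read weighed more in the shallower Daxx-KO libraries, and the part of this in these shares was not tested. These intervals cover counting error over sites only, and neighbouring sites of 1 mouse are not independent.

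Sites poor in G and C were more often gained. Below 30% GC, 124 of 177 separated sites were gained (70.1%, 62.9 to 76.3). The share was 59.8% (58.3 to 61.3) at 30 to 35% GC and 49.6% (49.1 to 50.1) at 50 to 55% GC. It was 54.4% (52.5 to 56.3) at 60% GC and above. The median GC content was 45.1% for gains and 45.6% for losses.

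**Figure D1:**
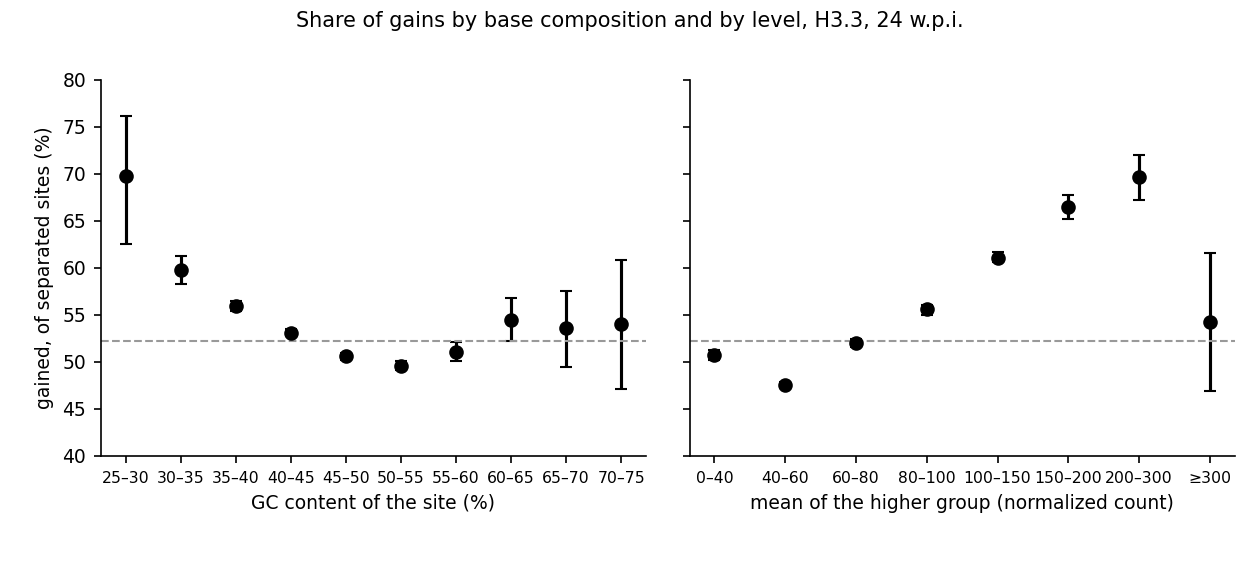
Share of gained sites among separated H3.3 sites at 24 w.p.i., by GC content of the site (left, bins of 5 percentage points) and by the mean normalised count of the higher group (right). Points are shares in percent with 95% Wilson intervals, the vertical axis starts at 40%, and the dashed line marks the 52.2% of all separated sites; the share falls from 69.8% in the poorest GC bin to 49.6% at 50 to 55%, and by level it is 50.7% below 40, 47.5% at 40 to 60 and 69.7% at 200 to 300.

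Gains and losses occupied the same kinds of places. Of the gained sites, 11.5% overlapped a promoter, taken as 1 kb on either side of an annotated transcription start site (TSS), as did 11.2% of the lost sites. An exon was overlapped by 17.1% of gains and 17.2% of losses, and a gene by 57.1% and 57.6%. In each of these classes the share of gains stayed near that of all sites, with 52.8% (52.2 to 53.4) at promoters, 51.8% (51.5 to 52.1) in introns and 52.4% (52.1 to 52.8) between genes.

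Listed sites of either direction overlapped promoters more often than windows of the whole genome. Of the central 600 bp of the sites, 10.6% of gains and 10.4% of losses overlapped a promoter, against 7.9% of 3992834 autosomal windows of 600 bp. Among windows of 50 to 55% GC the shares were 15.2% of gains, 14.4% of losses and 15.3% of genome windows. At 60 to 65% GC they were 53.5%, 50.8% and 54.3%. At these GC contents the listed sites overlapped promoters about as often as the genome did. Median values at promoter gains were 61.8 and 64.5 against 10.2 and 8.5, and at distal gains 55.2 and 61.1 against 9.2 and 6.6.

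Telomere-like repeats were rare and occurred at sites of both directions. At least 3 tandem copies of TTAGGG, on either strand, lay in the central 600 bp of 26 gained sites (0.02%) and 32 lost sites (0.027%), against 0.009% of the autosomal windows. The gained site in Sh3gl3 (sequence above) had 26.5 and 43.0 for Daxx-KO and at most 1 read in a WT library. The lost site on chromosome 5 (sequence above) had 0 and 0 against 83.0 and 64.9. Both sites were the largest changes of their direction among those with the repeat outside chromosome 18, and were picked after their values had been seen. The letters GAGGAAGT, which resemble the sequence that Pu.1 binds, were in 4.053% of gains, 4.111% of losses and 3.638% of the windows. Runs of 10 CA were in 7.345%, 7.526% and 5.825%, and 3 tandem copies of GGAA in 0.706%, 0.598% and 0.968%. The windows were not matched for GC content, whose median was 45.5% for gains, 46.0% for losses and 41.8% for windows. The shares of TTAGGG and GAGGAAGT are therefore no measure of enrichment. In the last 1 Mb at the ends of the chromosomes the share of gains was 52.6% on the centromere side and 52.9% on the telomere side. Reads of repeats may be left out or misplaced by alignment, and this was not tested.

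Neighbouring sites shared a direction about as often as not. Of 251039 pairs of neighbouring separated sites, 49.1% had the same direction. For gaps of 1 to 2 kb the share was 51.5% (50.9 to 52.1), and for gaps of 10 to 50 kb 50.5% (50.1 to 50.9). The 251039 pairs include 7910 pairs of overlapping sites, of which 0 had the same direction, and these lower the 49.1%. Neighbouring windows had been merged by the authors, which bears on the overlapping pairs and on those at the shortest gaps.

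Whole genes accordingly held gains and losses side by side. Of 16636 protein-coding genes with a separated site over the gene, 10940 (65.8%) held both directions. Of the 3534 genes with at least 10 sites, 3531 held both, and the median share of gains in these was 50.0% (5th to 95th percentile 30.4 to 71.4%).

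The gene with the largest excess of gains was Ctnna3, which encodes an alpha-catenin, with 75 gained and 26 lost sites over 1573.6 kb. Ptprd, a receptor tyrosine phosphatase, had 54 and 29, and Ank3, which encodes ankyrin-G, had 56 and 34. Elmo1, an activator of Rac with Dock proteins, had 42 and 20, and Tiam1, an exchange factor for Rac, had 36 and 16. The largest excess of losses was at Asic2, an acid-sensing ion channel, with 83 gained and 120 lost sites over 1088.3 kb. Agap1 had 37 and 62, Cacna1c, a calcium-channel subunit, had 48 and 73, and Dysf, which encodes dysferlin, had 21 and 43. Foxn3, a forkhead factor, had 27 and 45. These genes are the ends of a ranking on a difference of counts, which favours long genes.

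Daxx itself had no listed H3.3 site over its gene at 24 w.p.i., so the deletion could not be seen in the H3.3 values. In the H3K27ac table of the same mice, a site inside Daxx (chr17:33909801-33913400) held 113.2 and 93.7 normalised counts for Daxx-KO and 857.9 and 367.8 for WT. Both Daxx-KO values were lower there, while H3K27ac sites on both sides of it were higher in Daxx-KO. Within 5 kb of Daxx there were 2 H3.3 sites, both gained. At chr17:33917401-33918350, which overlaps exons of Tapbp and Zbtb22, Daxx-KO had 39.7 and 120.0, and both WT libraries held 0. With the WT group set to 3 reads in place of 0, the Daxx-KO mean was at least 57.2-fold higher. Such a bound, here and below, rests on that setting alone. It leaves out the spread of the higher group and the selection of the sites.

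Spi1, the gene of Pu.1, had 7 sites over the gene and 5 kb around it, 3 gained and 4 lost, and none within 1 kb of a Spi1 TSS. The highest was an intronic site at chr2:91111451-91112550, with 119.2 and 156.2 for Daxx-KO against 60.9 and 20.7. Closer to a Spi1 TSS, a gained site at chr2:91099001-91099800 had 139.1 and 31.7 against 8.30 and 26.3. The 2 Daxx-KO libraries differed there by more than the nearer one differed from WT. It overlapped a lost site at chr2:91098601-91099200, where both Daxx-KO libraries held 0 and the WT libraries 33.2 and 51.7. The gain and the loss thus lay on adjoining bases of the same gene.

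Fbp1 and Fbp2, neighbouring genes for the gluconeogenic enzyme fructose-1,6-bisphosphatase, were likewise mixed. Over Fbp2 and 5 kb around it, 3 sites were gained and 3 lost. The strongest was the lost intronic site at chr13:62845401-62846150, with at most 1 read in a Daxx-KO library and WT values of 38.7 and 104.4. Between the genes, a gained site at chr13:62862351-62862950 had 103.8 and 67.9 against 2.77 and 12.2, without overlap of the groups. Over Fbp1 itself the single site was lost, with 0 and 31.7 against 47.97 and 53.6.

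**Figure D2:**
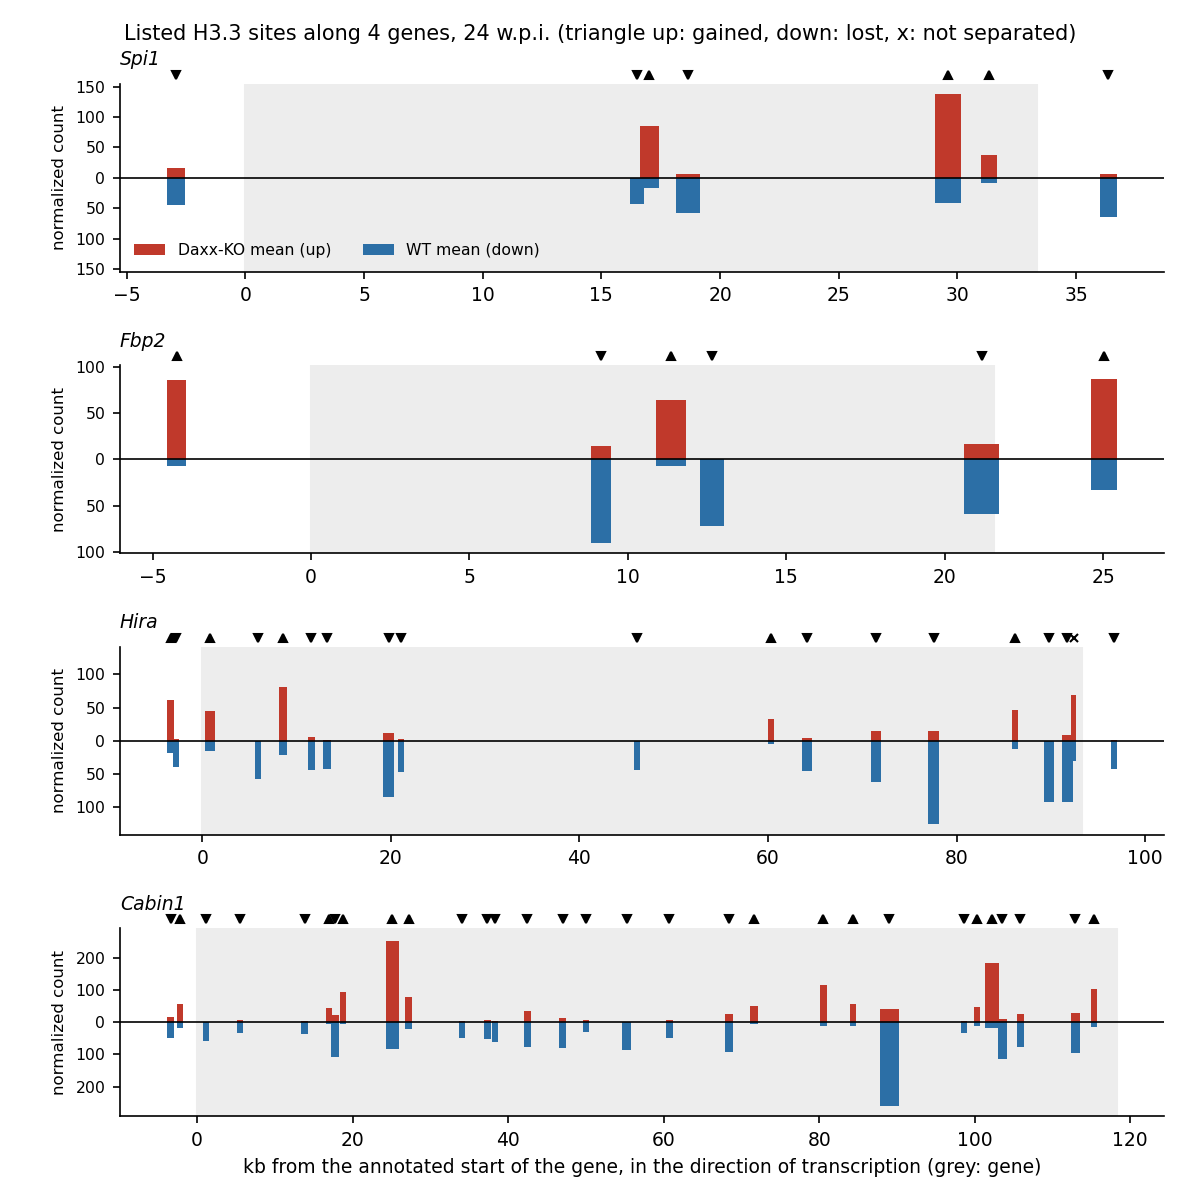
Listed H3.3 sites along Spi1, Fbp2, Hira and Cabin1 at 24 w.p.i., by distance in kb from the annotated start of the gene. Red bars up are Daxx-KO means and blue bars down WT means in normalised counts, the gene is shaded grey, and triangles mark gained (up) and lost (down) sites and a cross a site that was not separated; all 4 genes hold gains and losses, some in runs of 1 direction, and over the gene Hira had 4 and 11 and Cabin1 10 and 18.

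The genes of the H3.3 deposition complex of Hira showed more lost than gained promoter sites, 10 against 3 over Hira, Cabin1, Ubn1 and Ubn2, while 52.8% of all separated promoter sites were gained. The wider list of 13 genes of H3.3 and its chaperones had 9 gained and 12 lost promoter sites, and these 4 genes are too few to read a share from. All 4 listed promoter sites of Cabin1 were lost. At chr10:75762801-75763500, near its first exon, both Daxx-KO libraries held 0 and the WT libraries 38.7 and 77.1, so the WT mean was at least 34.5-fold higher. At Ubn2 all 3 were lost, for example 0 and 6.79 against 47.05 and 47.01 at chr6:38432401-38433200. Promoter sites of alternative transcripts are included, and the counts over genes (10 gained and 18 lost sites at Cabin1) are mixed as elsewhere.

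Hira and Ubn1 each had promoter sites of both directions. The site at the start of Hira (chr16:18877351-18878450) was gained, with 44.2 and 45.3 against 16.6 and 13.2. A site at an internal Hira TSS (chr16:18922801-18923500) was lost, with 0 in both Daxx-KO libraries against 47.97 and 41.4. A further internal one (chr16:18940651-18941750) was lost, with 0 and 9.05 against 47.97 and 43.2. At the start of Ubn1, shared with Glyr1, H3.3 was gained with 50.8 and 34.0 against 14.8 and 9.40. At an internal Ubn1 TSS, a gained site (46.4 and 70.2 against 0 and 6.58) stood within 1 kb of a lost one (2.21 and 0 against 53.5 and 106.2). No site was listed within 1 kb of a TSS of H3f3a or H3f3b, which encode H3.3 itself.

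**Figure D3:**
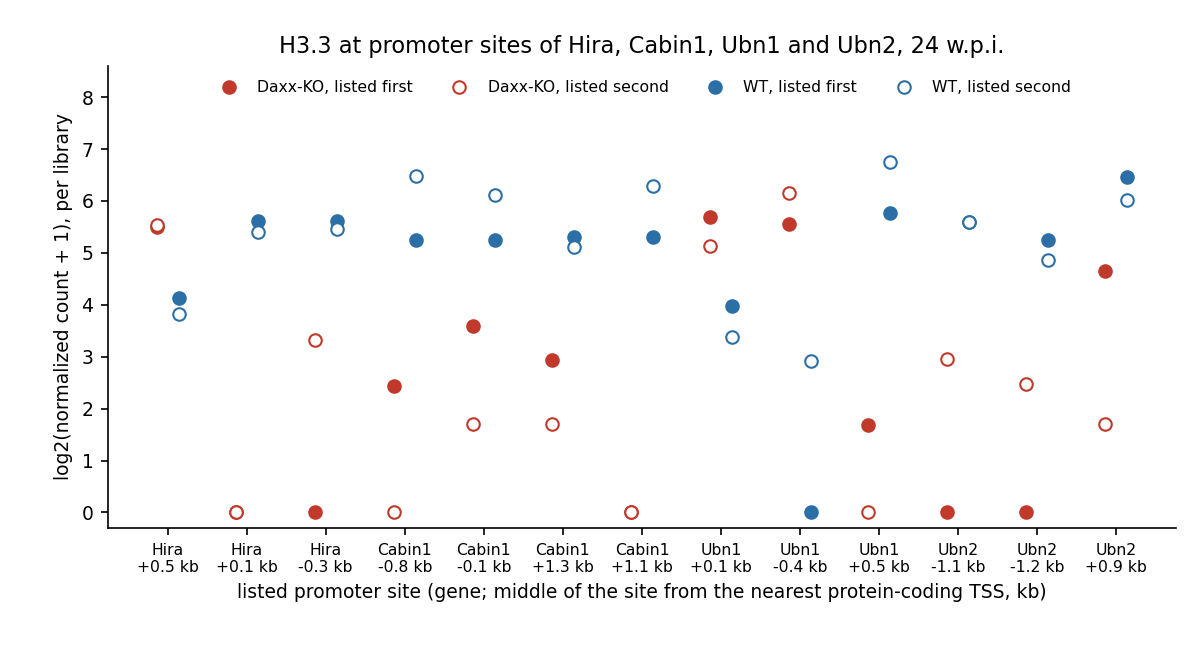
Values of every listed promoter site of Hira, Cabin1, Ubn1 and Ubn2 in each library, as log2 of the normalised count + 1. Red is Daxx-KO and blue is WT, filled points are the library listed first in its group and open points the second; 3 sites have both red points above both blue ones and 10 have them below.

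Changes were ranked by the log2 ratio of the group means, with 1 added to each. The strongest by this ranking were sites with reads in 1 group alone, which such a ratio favours. The first promoter site by size of gain, at the shared promoter of Csad, of taurine synthesis, and Zfp740 (sequence above), had Daxx-KO values of 230.7 and 117.7 and 0 in both WT libraries. That is at least 124.7-fold higher. A TSS of Gpd2, the mitochondrial glycerol-3-phosphate dehydrogenase, had 196.5 and 140.4 against 0 and 0. The developmental regulator Pax2 had 108.2 and 173.2, and Erc1 136.9 and 120.0, again with 0 in WT. At Mrps9, a protein of the mitochondrial ribosome, the Daxx-KO libraries were far apart, at 33.1 and 283.0.

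Among promoter losses, the gene annotated as protein-coding in the first 5 was Bcr, whose product is a signalling protein and fusion partner in leukaemia. It had 164.2 and 201.2 in WT and 0 in both Daxx-KO libraries, at least 108.9-fold lower. The Bcr site was centred at -0.6 kb from the nearest annotated TSS of the gene, which may be that of an alternative transcript. The other losses of the first 5 lay at starts that the annotation does not class as protein-coding, led by Gm49095 with 0 and 0 against 182.7 and 310.2. The second, at 2310005A03Rik, had 0 and 0 against 103.3 and 319.6. The next, at Gm17661 and Ptpmt1, also ranked above Bcr, with 0 and 0 against 136.5 and 235.0.

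Distal sites reached the same sizes. An intron of Herc1 gained H3.3 with 77.3 and 384.8 against 0 and 0, and a site in Lrba with 89.4 and 311.3 against 0 and 0. At C3ar1, the receptor for the complement fragment C3a, the values were 101.6 and 278.4 against 0 and 0. The strongest distal loss lay between genes on chromosome 7 (70733701 to 70734850), with 0 and 0 against 147.6 and 272.6. An intron of Caln1 had 0 and 0 against 33.2 and 347.8, with the WT libraries far apart. In all 5 distal gains the Daxx-KO library listed second was the higher one.

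HSPC regulators held promoter sites of both directions. Of all 20807 protein-coding genes, 36.5% had a gained promoter site, 33.2% a lost one and 15.3% both. Of the 22 stem and progenitor regulators, 9 had a gained site (40.9%) and 10 a lost site (45.5%), and 5 had both. Lost sites lay at Meis1, a homeobox factor of stem cells (0 and 0 against 73.8 and 103.4), and at Hoxa9, its partner (0 and 0 against 59.96 and 66.75). Tal1, needed for blood specification, had 0 and 0 against 68.3 and 77.1. Gained sites lay at Lyl1, a relative of Tal1 (37.5 and 40.8 against 0 and 0), and at Gata2 (26.5 and 120.0 against 1.84 and 4.70). Mecom and Hlf, both linked to stem-cell maintenance, carried gained and lost sites.

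Myeloid and neutrophil genes were mixed as well. Of the 25 myeloid transcription factors and receptors, 8 had a gained and 8 a lost promoter site (32.0% each). Cebpe, a factor of granule formation, was lost with 0 and 0 against 56.27 and 31.02, and Egr1, an immediate-early factor of macrophage fate, with 0 and 0 against 45.2 and 84.6. Nr4a1, a nuclear receptor, was gained with 61.8 and 83.8 against 3.69 and 9.40. Junb had a lost site at its TSS (0 and 20.4 against 60.9 and 95.9) and a gained one centred at -632 bp from it (52.99 and 38.5 against 5.53 and 5.64).

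Of the 21 neutrophil granule and surface genes, 7 had a gained site and 9 a lost site, and 5 had both. Ctsg, a granule protease, had a gained site with 174.4 and 140.4 against 38.7 and 3.76, and a lost one with 33.1 and 0 against 121.8 and 69.6. Ngp and Mmp9 also had both. Padi4, which citrullinates histones, had a lost site with 6.62 and 13.6 against 75.6 and 118.5.

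Among the lymphoid lists, the T-lineage genes stood highest in gains. Of 19 genes, 12 had a gained promoter site (63.2%) and 5 a lost one (26.3%). With promoters of 250 bp only 5 of the 19 had a gained site, beside 111 of the 429 genes on all lists. Gata3, a master regulator of T cells, was gained with 149.04 and 468.58 against 11.1 and 13.2. Satb1, a chromatin organiser of thymocytes, had a lost site with 0 and 0 against 52.58 and 47.01, and Notch1 one with 0 and 0 against 42.4 and 35.7, and both genes also had a gained site. Of the 7 T-cell markers, 5 had a gained and 1 a lost site. Markers such as Gata3 and Cd8a are on the list as well, so the counts are not independent. In other marker sets, genes with a gained and a lost site were 4 and 1 of 8 for B cells and 3 and 1 of 4 for megakaryocytes. They were 2 and 0 of 4 for mast cells or basophils, 5 and 5 of 11 for HSPCs and 3 and 4 of 11 for neutrophils. For erythroid markers they were 1 and 1 of 6, and for monocytes or macrophages 1 and 0 of 6. Of the 23 B-lineage genes, 9 had a gained and 9 a lost site. Ebf1 was gained (48.6 and 104.1 against 1.84 and 7.52), Foxo1 was lost (2.21 and 0 against 73.8 and 113.8), and Pax5 and Cd22 had both. These lists are short, so single genes weigh much in their shares.

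Interferon-response and nucleic-acid-sensing genes included 13 of 31 with a gained site (41.9%) and 10 with a lost site (32.3%). Irf7, the interferon regulator, was gained at its TSS with 93.8 and 74.7 against 0 and 7.52, and Tmem173, which encodes Sting, near a TSS with 138.0 and 106.4 against 5.53 and 0. Tlr9, the receptor for CpG DNA, had 106.0 and 466.3 against 38.7 and 2.82. Ddx58, which encodes the RNA sensor Rig-I, was lost with 0 and 0 against 58.1 and 82.7. Usp18, a brake of interferon signalling, was lost with 15.5 and 2.26 against 116.2 and 83.7. Of the 26 inflammatory cytokine and inflammasome genes, 6 had a gained and 6 a lost site (23.1% each). Nfkb1 and Tnfaip3, of the NF-kB pathway, were in both sets.

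Genes of H3K9 methylation and of the Polycomb and Trithorax groups had shares above those of all protein-coding genes in both directions. Of 21 genes of H3K9 methylation and repeat silencing, 10 had a gained (47.6%) and 11 a lost site (52.4%). Trim28, a corepressor of retroelements, was lost with 0 and 0 against 39.7 and 44.2, and Ehmt1, an H3K9 methyltransferase, had a lost site with 0 and 0 against 35.1 and 60.2 beside a gained one. Atf7ip, a partner of Setdb1, was gained with 101.6 and 135.8 against 3.69 and 11.3. Of 28 Polycomb and Trithorax genes, 16 had a gained (57.1%) and 11 a lost site (39.3%). Ring1 was gained with 28.7 and 110.9 against 11.1 and 0.94, and Kmt2b, an H3K4 methyltransferase, had a lost site with 0 and 0 against 36.9 and 41.4 beside a gained one. The median number of TSSs was 7 in both lists against 3 over all protein-coding genes, which gives these genes more promoter windows.

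The other lists lay on both sides of the averages. Among TGF-beta and Wnt genes, 17 of 31 had a gained (54.8%) and 13 a lost site (41.9%), with both at Smad3, a transducer of TGF-beta, and at Gsk3b. Glycolysis and gluconeogenesis had 12 of 26 in each direction, such as a loss at Pkm, pyruvate kinase (0 and 0 against 121.8 and 72.4), and a gain at Ldha, lactate dehydrogenase (77.3 and 79.2 against 5.53 and 2.82). Of 36 cell-cycle genes, 15 had a gained and 9 a lost site. Gains lay at Trp53, the p53 gene (57.4 and 144.9 against 3.69 and 1.88), and at Cdkn1c, a cell-cycle inhibitor (92.7 and 56.6 against 0 and 0). Losses lay at Cdkn2a, also a cell-cycle inhibitor (8.83 and 0 against 85.8 and 45.1), and at Ccnd1 (1.1 and 0 against 47.97 and 30.08) beside a gained site.

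Ribosomal protein genes had gains in 10 of 35 (28.6%) and losses in 6 (17.1%). Developmental regulators outside blood, which Polycomb often covers, had 9 of 39 (23.1%) and 10 (25.6%). Twist1 was gained with 67.3 and 242.2 against 7.38 and 14.1. Of 17 erythroid and megakaryocyte genes, 7 had a gained and 5 a lost site, among them Zfpm1, the Gata cofactor Fog1, with 185.5 and 106.4 against 10.2 and 0. Of 16 monocyte, macrophage and mast-cell genes, 4 had a gained and 1 a lost site. Mitf, the mast-cell factor, was the one with both. Of the 13 genes of H3.3 and its chaperones, 5 had a gained and 6 a lost site.

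**Figure D4:**
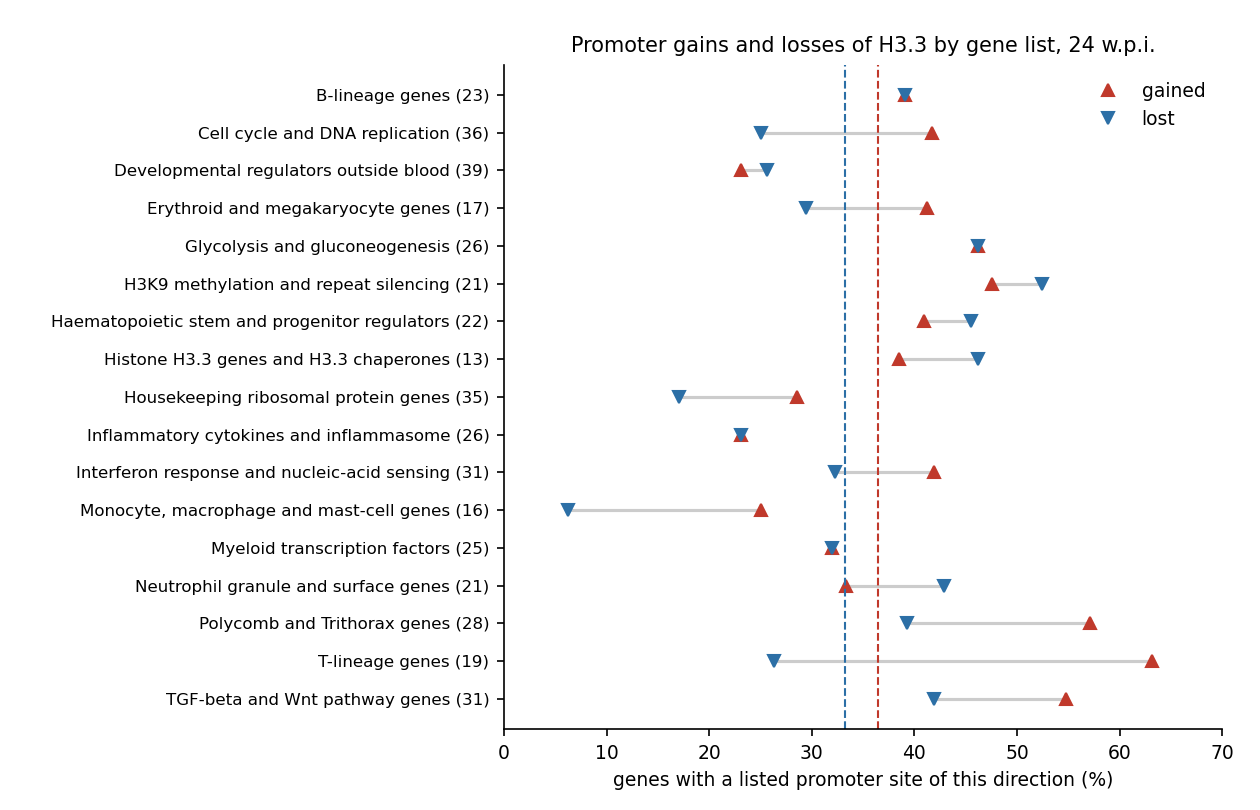
Share of the genes of each list (number of genes in parentheses) with a gained (red, up) or a lost (blue, down) H3.3 promoter site at 24 w.p.i., in percent. Dashed lines mark the shares over all protein-coding genes, 36.5% for gains and 33.2% for losses; T-lineage genes stand at 63.2% and 26.3%, and ribosomal protein genes at 28.6% and 17.1%.

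A small number of sites carried very high counts, and these were picked out after their values had been seen. Of the 206 sites with a mean of at least 300 in one group, 94 were gained, 79 lost and 33 not separated. The highest of all, at chr17:13551251-13553200, was not separated, with 26887.8 and 16059.5 against 23602.6 and 24719.4. The highest gained site, at chr1:24611051-24616700, covered 7 annotated pseudogenes, Gm28439, Gm10222, Gm28438, Gm28437, Gm10925, Gm28661 and Gm29216. It had 10070.7 and 29574.6 against 3557.1 and 3753.9, a 5.42-fold difference of the means. In ratio, the 2 Daxx-KO libraries differed from each other about as much as the lower one differed from WT. In the same mice this place was also higher in Daxx-KO for Pu.1 (8063.5 and 20752.1 against 3500.3 and 1894.5) and H3K9me3 (9691.0 and 29302.9 against 4489.4 and 3643.2). It was lower for H3K27me3 (706.8 and 820.6 against 2862.4 and 1493.5) and for a part of it in H3K27ac (447.3 and 875.3 against 947.2 and 2886.6). At 3 w.p.i. H3.3 was not separated there (1653.5 and 378.0 against 0 and 8496.9). The pseudogene cluster at Gm13340 in Myo3a was also gained for H3.3, with 977.0 and 3001.6 against 356.1 and 584.8. At the chromosome 1 place the Daxx-KO library listed second was the highest for H3.3, Pu.1 and H3K9me3 alike. Pseudogenes are copies of other genes, so reads from elsewhere may have aligned at both places. The part of this in the differences was not tested.

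A gained site of small ratio lay at chr10:130593901-130594850, with 2061.2 and 2028.2 against 1796.1 and 1709.1.

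Losses included ribosomal RNA sequence. At the annotated ribosomal RNA transcript CT010467.1 with Gm42418 and AY036118 (chr17:39847851-39849300), H3.3 was 1232.1 and 1577.8 against 1633.7 and 3014.0. At Gm26917 nearby (chr17:39842651-39843650) it was 459.3 and 814.9 against 1148.5 and 1293.6. A further Gm26917 site (chr17:39844151-39844750) was not separated, with 1255.2 and 1192.9 against 1084.8 and 1920.7. In the Sfi1 and Drg1 region of chromosome 11 most of the highest sites were lost, such as 1011.3 and 996.0 against 1466.7 and 1803.1 at chr11:3140501-3143000. A gain of 1486.0 and 1444.2 against 1106.0 and 1381.0, a ratio of 1.18, lay among them at chr11:3192501-3193550. Reads of such multicopy places may have been divided among copies, so the locus is uncertain.

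Along the chromosomes the share of gains varied little. It ranged from 49.3% on chromosome 14 to 54.0% on chromosome 17, which carries Daxx. Of 2020 bins of 1 Mb with at least 50 separated sites, 1828 (90.5%) had between 40 and 60% gains. The highest share was 73.7%, with 42 of 57 sites at 16 to 17 Mb of chromosome 2, which holds Plxdc2 and Malrd1. At 63 to 64 Mb of chromosome 10, 67 of 94 sites were gained (71.3%), in a bin that reaches into Ctnna3 and holds Sirt1, a histone deacetylase, and Herc4.

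The lowest share, 30.0%, was at 20 to 21 Mb of chromosome 8, where 64 of 213 separated sites were gained. This bin holds Defb33, a defensin gene, and predicted genes such as Gm15319 and Gm21119. The summed normalised counts of its listed sites were 11945.2 and 12786.2 for Daxx-KO against 17621.2 and 17174.0. In the same mice, Pu.1, H3K27ac and H3K27me3 sums were also lower in Daxx-KO there, with 5268.0 and 6359.7 against 13699.6 and 10797.3 for H3K27me3, while H3K9me3 was higher (11948.6 and 13756.7 against 10817.7 and 10263.3). At 73 to 74 Mb of chromosome 14, with Rb1, the retinoblastoma gene, and Med4, 33 of 94 sites were gained (35.1%). At 20 to 21 Mb of chromosome 16, with Thpo, the gene of thrombopoietin, 43 of 120 were gained (35.8%).

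The sites were then set beside the H3.3 table of 3 w.p.i., which came from other mice. That table listed 141512 autosomal sites, 81712 gained (57.7%) and 57563 lost (40.7%), from libraries of unequal depth, with 3.06 to 22.88 mean reads per window. Of the separated 24 w.p.i. sites, 16.7% overlapped a separated site of 3 w.p.i. by at least 1 bp, which was 29.3% of the sites of that time. Of the 44129 overlapping pairs, 22573 had the same direction and 21556 the opposite one, that is 51.2% the same. H3.3 was gained at 24 w.p.i. in 51.3% (50.7 to 51.9) of pairs over a gain of 3 w.p.i. and in 49.1% (48.3 to 49.8) over a loss. At promoters these were 53.4% (52.1 to 54.7) and 50.5% (48.2 to 52.7).

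Larger changes did not share a direction more often. In 5 equal groups of pairs by the absolute log2 ratio at 24 w.p.i., 52.4% had the same direction in the lowest and 49.0% in the highest. In 5 such groups by the level at 24 w.p.i. the share lay between 50.2 and 52.6%. Across the 44129 pairs, the log2 ratios of both times had a Pearson correlation of 0.026, over sites that share their libraries.

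The tables of the other targets at 24 w.p.i. came from the same 4 mice, so their directions are not independent of those of H3.3, and the values are given side by side. Of the listed sites, 46.9% were gained and 51.3% lost for Pu.1, 41.3% and 56.0% for H3K27ac, 46.9% and 50.3% for H3K9me3, and 40.8% and 56.8% for H3K27me3. H3.3 was gained in 51.2% (50.7 to 51.8) of pairs over a Pu.1 gain and in 50.0% (49.5 to 50.5) over a Pu.1 loss. For H3K27ac, a mark of active promoters and enhancers, these were 52.3% (51.7 to 53.0) and 51.1% (50.6 to 51.6). For H3K9me3, a mark of heterochromatin, they were 50.7% (50.0 to 51.4) and 51.9% (51.1 to 52.7). For H3K27me3, the mark of Polycomb, they were 50.4% (49.7 to 51.2) and 50.1% (49.5 to 50.7).

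**Figure D5:**
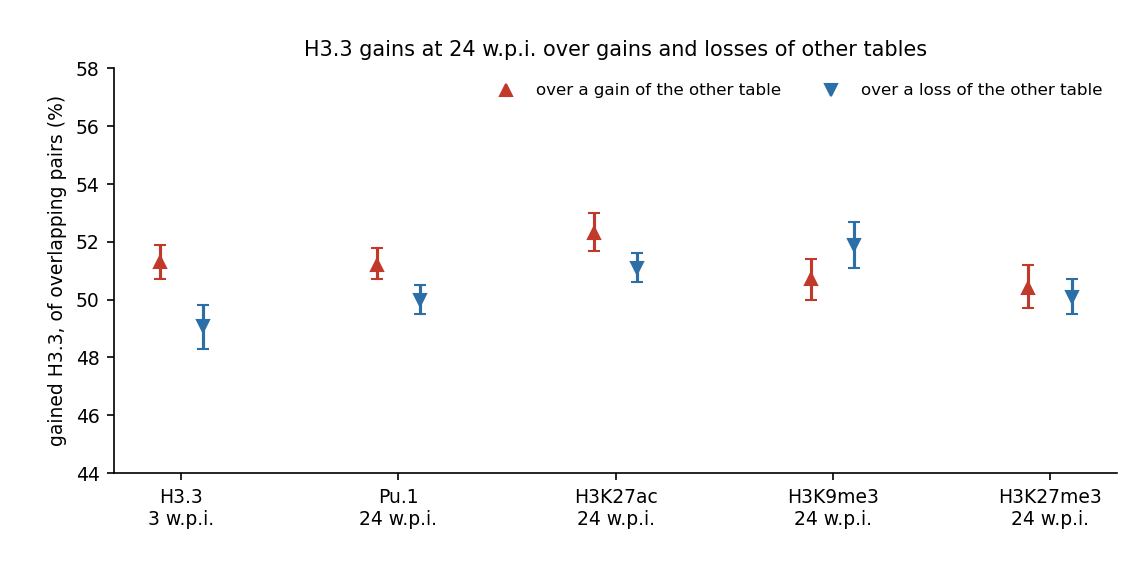
Share of overlapping pairs in which H3.3 was gained at 24 w.p.i., over gained (red, up) and lost (blue, down) sites of 5 other tables, in percent with 95% Wilson intervals; the vertical axis runs from 44 to 58%. All 10 shares lie between 49.1 and 52.3%.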

How the data were processed

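CUT&Tag libraries of H3.3, Pu.1 and the 3 histone marks came from 2 Daxx-KO and 2 WT mice at 24 w.p.i., and those of H3.3 at 3 w.p.i. from other mice. The submitters' processing notes name CASAVA 1.8.4, cutadapt 1.13, STAR 2.5.3, bedtools and the mm10 build. Per the file headers, the authors ran diffReps 1.55.6 with a negative binomial test (600-bp windows, 50-bp steps, 100-bp fragments, p-value cutoff 0.0001) and deposited, for each site, a signal value per library, which is the read count divided by a library constant. The deposited fold changes, p-values and adjusted p-values were not used.

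Direction and size were recomputed from the per-library values with Python 3.11.15, numpy 2.4.6 and pandas 2.3.3, on autosomes. Promoters were 1000 bp on either side of a GENCODE M21 TSS. Dividing by the value of 1 read gave whole reads, within 0.02 reads, for 100.0% of values in each library. A group at 0 was set to 3 reads over the group for a bound on the fold, which leaves out the spread of the other group and the selection of sites. Sequences came from RefSeq GRCm38.p6. No test was run, since the sites had been selected on this contrast, and no paired fit was made. Named genes were a set of H3.3 and study genes, the 5 largest changes at promoters and elsewhere in each direction, up to 4 per list and direction, the 10 genes with the largest excess in each direction, and the 5 bins of 1 Mb at each end. Members and lists were chosen with earlier results of these data known. The interval routines were tested on simulated data. A few genes and sequences are not reported here.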

Additional observations from a re-analysis of the deposited data

Results flagged for a closer look

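Opposite directions at 3 and 24 w.p.i. drew attention at 21556 overlapping pairs of H3.3 sites, where every library of one group lay beyond the other at both times, in opposite directions. The difference between the times was not tested, and it was slightly rarer than the same direction (22573 pairs).

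In 6 of the 10 bins of 1 Mb at the ends of the ranking by share of gains, the summed H3.3 of the listed sites was separated one way at 24 w.p.i. and the other way at 3 w.p.i. On chromosome 3 from 120 Mb, 72.2% of sites were gained at 24 w.p.i., while the sums at 3 w.p.i. were 1009.9 and 1145.9 for Daxx-KO against 1349.0 and 1631.8. On chromosome 9 from 84 Mb, which holds Bckdhb, 70.3% were gained, and the 3 w.p.i. sums were 450.1 and 492.2 against 1056.6 and 1081.8. Losses prevailed at 24 w.p.i. in the other 4 bins, all higher in Daxx-KO at 3 w.p.i. These were chromosome 8 from 20 Mb (30.0% gained), chromosome 14 from 73 Mb (35.1%), chromosome 12 from 18 Mb (35.2%) and chromosome 16 from 20 Mb (35.8%). On chromosome 8 the 3 w.p.i. sums were 17490.0 and 19433.2 against 2876.8 and 11789.3. None of these differences was tested, the bins were picked for their share at 24 w.p.i., and the 3 w.p.i. libraries differed in depth.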

How the results depend on the processing

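No paired analysis was possible because no result comes from a test. Leaving out 1 library at a time put the share of gains at 52.1 to 52.4%. A separated site stays separated when a library is left out, so this step could only add sites. It therefore cannot show whether the counts rest on a single library. Over all alternatives it was 51.7 to 52.6%, and the share of pairs of the same direction was 48.5 to 55.7%. Scaling by reads per window changed the direction of 0 sites. Of 128 recomputed counts, 103 stayed within 1.5 times the reported ones, and the other 25 follow from wider or narrower definitions. Promoters of 3 kb held 29155 gained and 26546 lost sites, and promoters of 250 bp 8247 and 7348. The listed genes with a promoter gain (169) became 254 and 111 with these promoters, and those with a loss (141) 246 and 90. Counting sites within 1 kb of each other gave 44925 pairs of the same and 43462 of the opposite direction for H3.3 at 3 w.p.i., 71038 and 69864 for Pu.1, 57096 and 57466 for H3K27ac, 36288 and 36870 for H3K9me3, and 41813 and 42055 for H3K27me3. Requiring an overlap of 50% of the shorter site left 22494 and 22174 for Pu.1, 19111 and 18660 for H3K27ac, 12035 and 12294 for H3K9me3, and 13705 opposite pairs for H3K27me3. With about 6 to 9 reads per window, sites at low counts are imprecise, and unlisted places have no value.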

Other observations

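Some promoters changed in the same way at both times, and the following were picked after their values had been seen. At Stk32c, a kinase gene, H3.3 was 94.9 and 81.5 in Daxx-KO against 0.92 and 0 at 24 w.p.i., and 37.1 and 47.2 against 0.70 and 5.24 at 3 w.p.i. At Nupr1, a stress-induced chromatin protein, it was 66.2 and 63.4 against 1.84 and 7.52, and then 56.1 and 82.5 against 11.2 and 0. At Ywhaz, which encodes a 14-3-3 protein, it was 0 and 0 against 35.98 and 82.7, and at 3 w.p.i. 0 and 4.42 against 51.9 and 115.2. Prom1, which encodes the stem-cell antigen CD133, was lost at both, with 2.21 and 9.05 against 71.95 and 56.4 and with 1.58 and 5.90 against 45.6 and 44.5. At Nfkb1, a site lost at 3 w.p.i. (0 and 2.95 against 70.1 and 39.3) overlapped in part a promoter site gained at 24 w.p.i. (40.85 and 33.95 against 1.84 and 0), in other mice. Of the promoter pairs, 3096 were gained and 969 lost at both times, and 3689 were opposite. Of the opposite pairs, 987 were gained at 24 w.p.i. and lost at 3 w.p.i., and 2702 the reverse. Gains at 3 w.p.i. thus prevailed among these pairs whichever way H3.3 went at 24 w.p.i. The same direction made up 52.4% of the promoter pairs, against 51.2% of all pairs.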
